A study of Rattus norvegicus with 4 samples.

Results

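Cathepsins, legumain and cystatin C were followed through 10 genes: the proteases Lgmn, Ctsd, Ctsl, Ctsb, Ctsz, Ctsc, Ctss, Ctsh and Ctsk, and the inhibitor Cst3. They were taken by gene name from the probes of 4 one-colour arrays, where cathepsin L is written Ctsl1. Each was represented by 1 probe of 60 bases, printed in 1 spot, and all 10 were among the 12861 genes tested. All 10 probes were well above background on all 4 arrays.

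The arrays measured spleen cells of male WKAH rats, 8 to 12 weeks old, 24 h after an injection of liposomes (2 arrays, liposome 1 and liposome 2) or of saline (2 arrays, saline 1 and saline 2). In both groups cells carrying MHC class II had been removed with magnetic beads and cells carrying CD11b/c, an integrin of myeloid cells, had then been kept, so the RNA is that of an enriched fraction and not of a pure cell type. The comparison asks what liposomes change in the expression of these cells, called splenic macrophages in the study's title. Liposome composition and dose are not stated in the sources used here, and nothing in the labels says that arrays of a group stand for different animals. The p-values therefore measure the spread between these samples alone, which may be technical.

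Cathepsins are the proteases of the lysosome. Most are cysteine proteases of the papain family, cathepsin D is an aspartic protease, and legumain is a cysteine protease of another family that cuts after asparagine and trims cathepsin precursors to their mature chains. Macrophages use them to break down what they have engulfed and to process antigens, and cystatins, of which cystatin C is the secreted one found in most tissues, bind and block the cysteine cathepsins.

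The cells were enriched for a myeloid antigen. The genes Itgam, which encodes CD11b, and Cd68, a glycoprotein of macrophage lysosomes, were well above background on all 4 arrays. Both were named after their values were seen, from a list of 19 macrophage markers. Of that list 16 were tested, and 7 fell and 1 rose by the threshold given below, against 4.06% and 4.83% of all genes. Log2 values over the genes tested correlated at 0.993 between the liposome arrays, at 0.989 between the saline arrays and at 0.971 to 0.976 across groups (genes are not independent replicates), and the scanner software's quality metrics were all in range on 2 of the 4 arrays. By limma, a linear model fitted to all 12861 genes with Benjamini-Hochberg adjustment and a threshold of 0.05 on the adjusted p, 1143 genes (8.89%) passed, 621 higher (4.83%) and 522 lower (4.06%) on the liposome arrays. With each array scaled to its median 852 were higher and 442 lower.

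Of the 10 genes 4 rose after liposomes, 0 fell and 6 did not pass, a share of 40% against the 8.89% of all genes. The 10 genes were chosen with earlier results of these data known, so this share is a description. Legumain and cathepsin D, the asparagine-specific and the aspartic protease, rose over 4-fold, and the cysteine proteases cathepsin L and cathepsin B rose about 2-fold. The other 5 cathepsins differed by less, and cystatin C lay lower without passing the threshold. The median log2 fold change was 0.49 over the 10 genes and -0.04 over all genes tested. Values below are scaled intensities in linear units, the deposited processed intensity multiplied by 1 factor per array (0.938 to 1.06) that sets the arrays' 75th percentiles equal. Each probe binds with its own strength, so intensities compare arrays for 1 gene and not genes with each other.

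Lgmn, legumain, had scaled intensities of 32160 and 31610 on the liposome arrays, against 7466 and 6089 on the saline arrays. Both liposome arrays lay far above both saline arrays, and the liposome arrays differed from each other by less than the saline arrays did. The fold change was 4.73, with a 95% interval of 3.66 to 6.12 (log2 2.24 ± 0.14, SE, n = 2 arrays per group, limma adjusted p = 0.00893). Of the 12861 genes 80 had a higher log2 fold change. Its probe, shown because it carries the largest rise among the 10 genes, is assigned in the files to chr6:126669400-126669708 of the rat assembly rn4, minus strand. That stretch is 309 bases long for a probe of 60 bases.
Lgmn probe: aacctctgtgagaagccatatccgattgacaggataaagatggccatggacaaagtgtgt

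Ctsd, cathepsin D, had 186600 and 170200 on the liposome arrays, against 45310 and 41700 on the saline arrays. The groups were as clearly apart as for legumain, and the fold change was 4.10 (95% interval 3.33 to 5.05, log2 2.04 ± 0.11, limma adjusted p = 0.008). The Ctsd probe is placed on chromosome 1 at 202619669 to 202619727 of rn4, minus strand. The sample titles end in "exp" and a number, exp1 for 1 liposome and 1 saline array and exp2 for the others, without saying what arrays of a number share. Within each title number the liposome array exceeded the saline array 4.12-fold for number 1 and 4.08-fold for number 2. For Lgmn these values were 4.31 and 5.19.

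Ctsl, cathepsin L, an endopeptidase of the lysosome, had 13590 and 12830 on the liposome arrays, against 5639 and 5413 on the saline arrays. It rose 2.39-fold (95% interval 1.99 to 2.88, log2 1.26 ± 0.10, limma adjusted p = 0.0138), and the arrays within each group differed little. Ctsb, cathepsin B, which cuts within chains and also trims dipeptides from their ends, had 210100 and 215600 on the liposome arrays, against 114800 and 93500 on the saline arrays. It rose 2.05-fold (95% interval 1.59 to 2.66, log2 1.04 ± 0.14, limma adjusted p = 0.0312). The groups did not overlap, and with quantile normalization Ctsb missed the threshold (limma adjusted p = 0.0508) at a similar log2 fold change of 1.09. The Ctsl probe lies on chromosome 17 at 6293891 to 6293950 and the Ctsb probe on chromosome 15 at 42423613 to 42423672 of rn4.

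**Figure D1:**
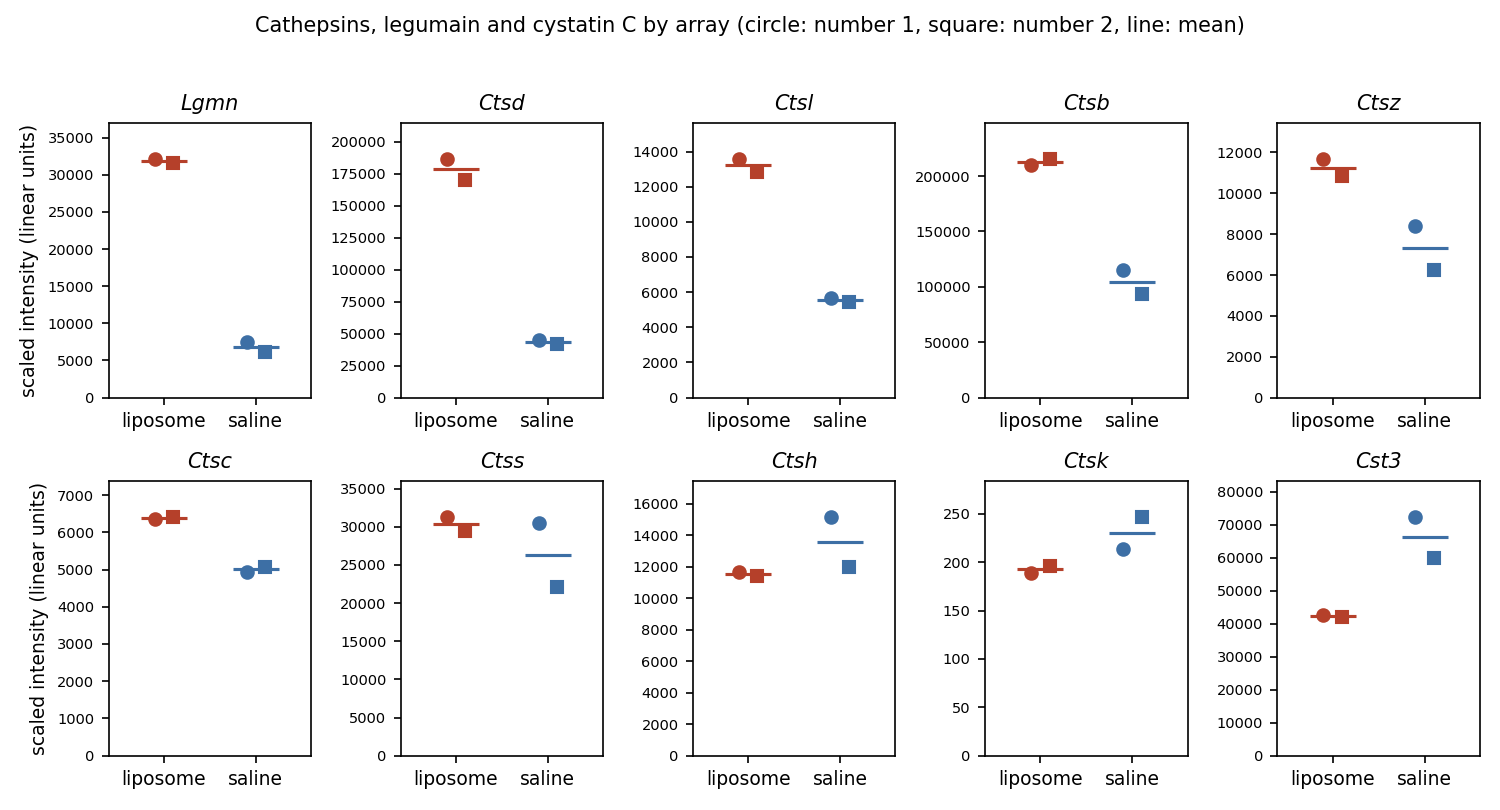
Scaled intensity (linear units, y axis from 0, its own scale in each panel) of the 10 genes on the 2 liposome arrays (left in each panel, red) and the 2 saline arrays (right, blue), with the group mean as a line; circles are arrays numbered 1 and squares those numbered 2. Lgmn, Ctsd, Ctsl and Ctsb show liposome arrays well above saline arrays, Ctss overlaps, and for Cst3 the liposome arrays lie lower, at 42540 and 42040 against 72370 and 59900.

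Among the exopeptidases, which trim chains from their ends, Ctsz, a carboxypeptidase also called cathepsin X, had 11690 and 10840 on the liposome arrays, against 8378 and 6245 on the saline arrays. Ctsc, dipeptidyl peptidase I, which activates the serine proteases of granules, had 6369 and 6416 on the liposome arrays, against 4945 and 5078 on the saline arrays. For both genes the liposome arrays were the higher ones without overlap, at fold changes of 1.56 (95% interval 1.12 to 2.17) and 1.28 (95% interval 1.07 to 1.52). Neither passed over all genes (limma adjusted p = 0.0952 for Ctsz and 0.0891 for Ctsc), and Ctsz passed with normexp background correction (adjusted p = 0.0469). Ctsh, an aminopeptidase, had 11650 and 11420 on the liposome arrays, against 15170 and 11950 on the saline arrays. Here the liposome arrays were slightly lower, by less than the gap between the saline arrays (log2 -0.22 ± 0.15, limma adjusted p = 0.36). The Ctsh probe is assigned to a stretch of 2307 bases on chromosome 8, from 94986941 to 94989247 of rn4, the Ctsc probe lies on chromosome 1 at 144661035 to 144661094, and the files call the Ctsz probe unmapped.

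Ctss and Ctsk are cysteine endopeptidases whose probes lie near each other on chromosome 2 of rn4, at 190466474 to 190466533 and at 190405601 to 190405660. Ctss, cathepsin S, which cuts the invariant chain of MHC class II in antigen-presenting cells, had 31310 and 29510 on the liposome arrays, against 30560 and 22080 on the saline arrays. It was the only one of the 10 genes whose groups overlapped, with a fold change of 1.17 and a 95% interval of 0.823 to 1.67 (limma adjusted p = 0.446). On the log2 scale the difference was 0.23 with the 4 arrays and turned to -0.0075 when saline 2 was left out. Ctsk, cathepsin K, the collagen-degrading protease of osteoclasts, had 189 and 196 on the liposome arrays, against 214 and 247 on the saline arrays. Its fold change was 0.837 with a 95% interval of 0.671 to 1.05 (limma adjusted p = 0.216). For Ctss and Ctsk, as for Ctsh, a 2-fold change in either direction lies outside the interval.

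Cst3, cystatin C, had 42540 and 42040 on the liposome arrays, against 72370 and 59900 on the saline arrays. Both liposome arrays lay below both saline arrays, at a log2 fold change of -0.64 ± 0.13 (95% interval -0.996 to -0.28), and the gene missed the threshold (limma adjusted p = 0.0598). It passed with normexp background correction (limma adjusted p = 0.0383) and with the title number as a replicate block (limma adjusted p = 0.0482). The liposome array was the lower one within both title numbers, at 0.588 and 0.702 of the saline array. The files place its probe on chromosome 3 at 137651064 to 137651123 of rn4, minus strand. Taken on the same array, so that scaling between arrays cancels, the ratio of Lgmn to Cst3 was 7.36-fold and that of Ctsd to Cst3 6.38-fold higher on the liposome arrays. The smallest of the 9 ratios of a protease to Cst3, that of Ctsk, was 1.30-fold higher. All 9 ratios were higher on both liposome arrays than on both saline arrays, as they were for 80.2% of all other genes, so this count is near that of genes in general.

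Over the 10 genes, groups did not overlap for 9, with 6 higher and 3 lower, while over all genes they did not overlap for 65.5%, with 30.4% higher and 35.1% lower. Arrays of 1 group differed for a given gene by 1.01-fold to 1.38-fold, and the widest gap was that of Ctss between the saline arrays. At an unadjusted p under 0.05 there were 7 of the 10 genes, the 4 that rose with Ctsz, Ctsc and Cst3. The 95% intervals of Lgmn and Ctsd lay wholly above those of the other 8 genes, and the difference between genes was not tested. Leaving out 1 array kept the log2 fold changes of the 4 risen genes within 0.89 to 1.19 for Ctsb, 1.22 to 1.30 for Ctsl, 1.97 to 2.10 for Ctsd and 2.09 to 2.39 for Lgmn. It removed most calls: limma called only Ctsd without liposome 1, only Lgmn without saline 1, and none of the 10 genes without liposome 2 or without saline 2, with 1 residual degree of freedom.

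**Figure D2:**
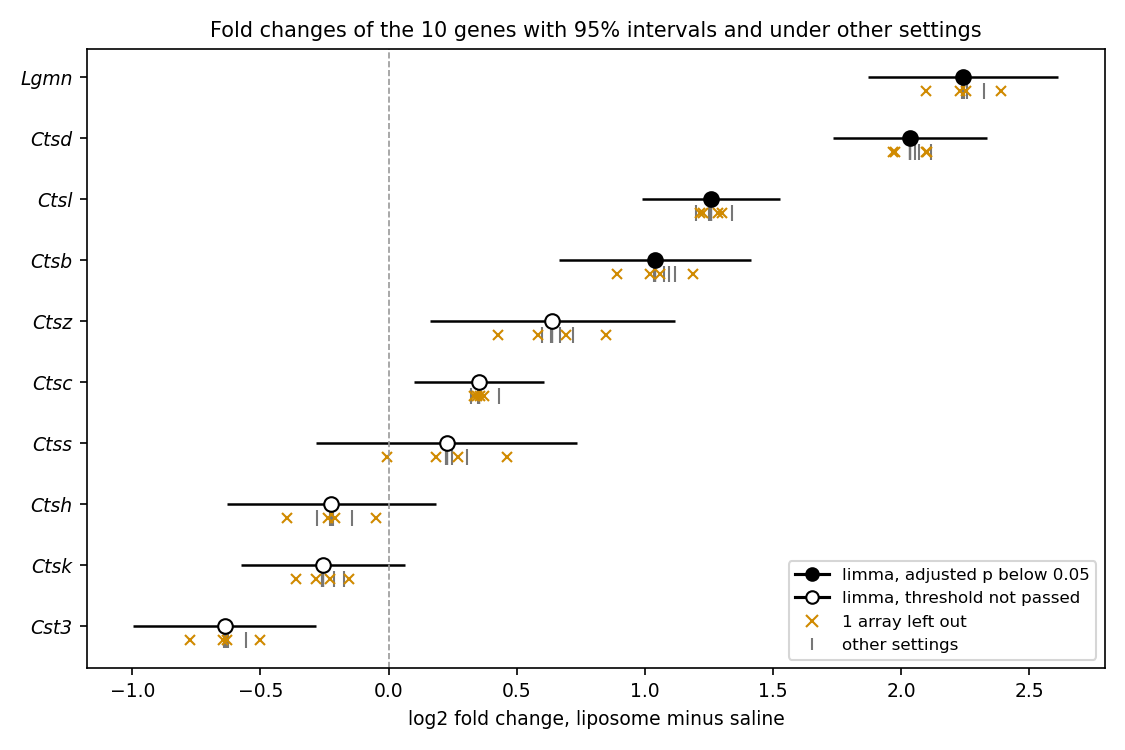
Log2 fold change, liposome minus saline (x axis), of the 10 genes (y axis) with limma's 95% interval as a line; filled circles passed the adjusted p threshold and open ones did not, crosses are fits with 1 array left out and ticks the other settings. Lgmn at 2.24, Ctsd at 2.04, Ctsl at 1.26 and Ctsb at 1.04 keep their sign in each fit, and Ctss at 0.23 reaches -0.0075 in 1 of them.

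**Figure D3:**
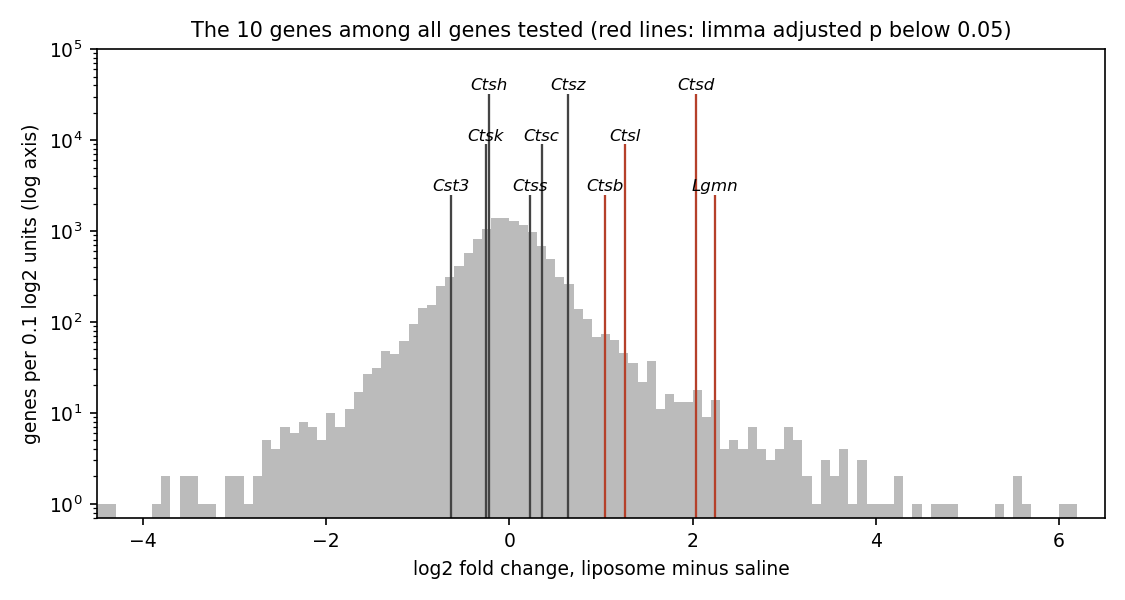
Number of genes per 0.1 log2 units (y axis, log scale) against log2 fold change, liposome minus saline (x axis), for the 12861 genes tested, as grey bars; vertical lines mark the 10 genes, red where limma's adjusted p passed the threshold. Lgmn and Ctsd lie in the thin right tail, where 80 genes lie above Lgmn, and Ctsh, Ctsk, Ctss and Ctsc lie in the bulk.

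Genes whose array values ran most like those of Lgmn were sought by the root mean square difference of log2 values over the 4 arrays, each gene centred on its own mean. The 5 nearest outside the 10 genes were Kcnh1, a potassium channel gene, Tnfsf15, a cytokine of the TNF family, Rasa4, a GTPase-activating protein for Ras, Myo7a, an unconventional myosin, and Dpp7, a lysosomal dipeptidyl peptidase, with differences of 0.05 to 0.07 log2 units. Dpp7 had 11530 and 10990 on the liposome arrays, against 2538 and 2352 on the saline arrays. Their fold changes of 4.96 for Rasa4, 4.86 for Myo7a, 4.79 for Tnfsf15 and 4.61 for Dpp7 are a description, since genes chosen for likeness to Lgmn on these arrays have to differ between the groups about as Lgmn does. Tnfsf15 was well above background on 1 of 2 saline arrays. Kcnh1 was well above background on neither, which leaves a bound of at least 4.81-fold on the liposome arrays. That bound sets the liposome mean against a saline mean in which no array counts for less than its dimmest probe called above background. Its own saline signals lay above that floor, so the bound equals the fitted fold and holds for the processed signal only. With normexp background correction the log2 fold changes were smaller for Kcnh1 (1.24), Tnfsf15 (1.28) and Myo7a (1.58), whose saline values were dim. Among the 10 genes Ctsd was nearest to Lgmn, at 0.13 log2 units.

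Of 17 genes of other cathepsins and relatives 16 were on the array and 6 were tested. Of these 1 rose, 0 fell and 5 did not pass, against 4.83% of all genes higher and 4.06% lower. The median log2 fold change of the 6 was -0.49. The 10 on the array but not tested did not pass the probe filter, among them Ctsg, a serine protease of neutrophil granules. Ctsa, a serine carboxypeptidase that also shields other lysosomal enzymes, had 120800 and 112900 on the liposome arrays, against 67170 and 57320 on the saline arrays, and rose 1.88-fold (limma adjusted p = 0.0332). Napsa and Ctse, aspartic proteases like cathepsin D, had log2 fold changes of -0.73 and -0.76, opposite in sign to Ctsd (limma adjusted p = 0.0566 and 0.0751). Ctsf, a papain-family cathepsin, lay at -0.25 and Tinagl1, a secreted relative without protease activity, at -1.14 (limma adjusted p = 0.203 and 0.0548).

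Ctsw, a cathepsin of cytotoxic lymphocytes, had 242 and 578 on liposome 1 and liposome 2, against 193 and 426 on saline 1 and saline 2. The arrays numbered 2 were the higher ones in both groups. The summed intensity of 10 tested markers of natural killer cells, which share this cathepsin, was likewise higher on number 2, at 17487 and 52080 on the liposome arrays and 40365 and 127413 on the saline arrays. So was that of 12 tested T cell markers, at 27778 and 50688 on the liposome arrays and 26746 and 64439 on the saline arrays. Within each number the natural killer sum was lower on the liposome array, while Ctsw was higher there. The part of either cell type in the Ctsw values was not tested.

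Intracellular cystatins moved in both directions. Of 26 genes of other cystatins and protease inhibitors 24 were on the array and 12 were tested. Of these 2 rose, 2 fell and 8 did not pass, against 4.83% of all genes higher and 4.06% lower. The median log2 fold change of the 12 was -0.19. Cstb, stefin B, which inhibits cysteine cathepsins inside the cell, had 69380 and 66900 on the liposome arrays, against 24600 and 21950 on the saline arrays, and rose 2.93-fold (limma adjusted p = 0.0119). Csta, stefin A, had 229 and 294 on the liposome arrays, against 795 and 793 on the saline arrays, at a log2 fold change of -1.61 (limma adjusted p = 0.0192). Ctla2a, known in the mouse as an inhibitor of cathepsin L, rose 1.78-fold, and Fetub, fetuin B of the cystatin superfamily, fell at a log2 fold change of -0.99 (limma adjusted p = 0.0319 and 0.0245). Stefins form a multigene family, and how far their probes cross-hybridize was not tested.

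Of 9 other peptidases of the lysosome 8 were tested, 4 rose, 0 fell and 4 did not pass, with a median log2 fold change of 0.50, against 4.83% of all genes risen and a median of -0.04. Beside Ctsa these were Dpp7 at 4.61-fold (limma adjusted p = 0.00759), Tpp1, a tripeptidyl peptidase, at 2.20-fold and Scpep1, a serine carboxypeptidase, at 1.46-fold (limma adjusted p = 0.0284 and 0.0446).

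Of 14 genes that sort proteases to the lysosome or help activate them 13 were tested, 3 rose, 1 fell and 9 did not pass, against 4.83% of all genes higher and 4.06% lower, with a median log2 fold change of 0.59. Igf2r, the larger of the receptors that carry enzymes tagged with mannose 6-phosphate, had 13420 and 12450 on the liposome arrays, against 6192 and 5348 on the saline arrays, and rose 2.25-fold. Scarb2, a lysosomal membrane protein that escorts glucocerebrosidase, also rose 2.25-fold, and Vps29, a subunit of the retromer that recycles sorting receptors, 1.79-fold (limma adjusted p = 0.0216, 0.0211 and 0.0278). Sort1, sortilin, a sorting receptor that does not need the sugar tag, had 423 and 423 on the liposome arrays, against 784 and 713 on the saline arrays, a fall with a log2 fold change of -0.82 (limma adjusted p = 0.0286).

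Of 12 genes of lysosomal membrane proteins 4 rose, 1 fell and 7 did not pass, against the same 4.83% and 4.06% of all genes, with a median of 0.75. Cd63, a tetraspanin, rose 5.19-fold, Mcoln1, a lysosomal cation channel, 2.26-fold, Lamp1 1.99-fold, and Scarb2 as above (limma adjusted p = 0.0106, 0.0162, 0.0411 and 0.0211). The member that fell, named after its value was seen, was Laptm4a, at a log2 fold change of -0.67 (limma adjusted p = 0.0446). Of 4 transcription factors of the family that drives lysosomal genes 3 were tested, and Tfe3 had no probe of that name on the array. Mitf, Tfeb and Tfec lay at 0.56, 0.19 and 0.32, and 0 of the 3 passed limma's adjusted threshold (adjusted p = 0.0949, 0.271 and 0.438).

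Cathepsins S and L and legumain process the invariant chain and antigens for MHC class II. Of 10 genes of the invariant chain and MHC class II 9 were tested, 0 rose, 2 fell and 7 did not pass, against 4.06% of all genes lower, with a median log2 fold change of -0.43. Cd74, the invariant chain, had 155100 and 155700 on the liposome arrays, against 206500 and 196000 on the saline arrays, at a log2 fold change of -0.37 (limma adjusted p = 0.0843). RT1-DOa, a chain of the class II molecule DO, which modulates the peptide editor DM, fell with a log2 fold change of -0.73 (limma adjusted p = 0.0425). RT1-Db1, a classical class II beta chain, fell with one of -0.63 (limma adjusted p = 0.0451), and under quantile normalization it missed the threshold at 0.0737. Cells with MHC class II on their surface had been depleted in both groups.

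**Figure D4:**
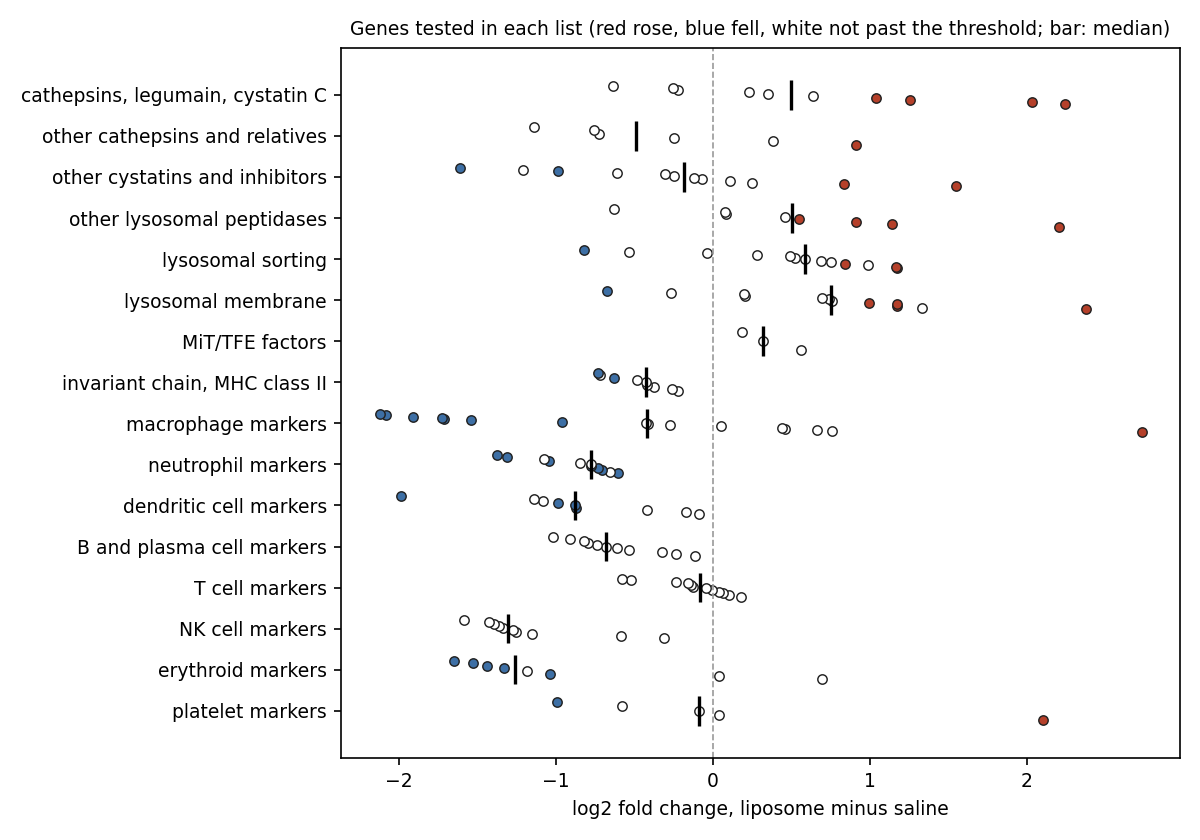
Log2 fold change, liposome minus saline (x axis), of the tested genes of each list (y axis), 1 point per gene, red where it rose and blue where it fell by limma and white where it did not pass, with the list's median as a bar. The cathepsin list and the lists of lysosomal peptidases, sorting and membrane proteins have medians of 0.49 to 0.75. All marker lists have medians below 0, that of macrophages (-0.42) included. Those of T cells and platelets, both -0.09, are close to the -0.04 of all genes.

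Markers of several other cell types lay lower on the liposome arrays. The list medians of platelets and T cells, both -0.09, were close to the -0.04 of all genes. In such a mixed fraction fewer cells of a type and less RNA per cell cannot be told apart. Past limma's threshold 4.83% of all genes were higher and 4.06% lower, the shares to set beside the counts that follow. A summed intensity weighs the brightest probes most and need not show how a list moved as a whole. On liposome 1 S100a9 and S100a8 held 78660 and 52500 of the neutrophil sum, and Hba-a1 held 20360 of the erythroid sum. Cd68, which lay higher on the liposome arrays while the macrophage sum lay lower, held 58150 of that sum on liposome 1. Of 14 neutrophil markers 11 were tested and 7 fell. Their summed intensity was 159646 and 182374 on the liposome arrays, against 275097 and 318815 on the saline arrays. Ltf, Mpo and Prtn3, granule genes of that list, did not pass the filter. Of 14 erythroid markers 8 were tested and 5 fell, with sums of 33325 and 31971 on the liposome arrays, against 89038 and 91473 on the saline arrays, and Epb42 and Rhag were among those that did not pass the filter. Of 12 B and plasma cell markers 11 were tested and 0 passed limma's threshold, with sums of 44798 and 34885 on the liposome arrays, against 64128 and 61190 on the saline arrays. Of 12 dendritic cell markers 9 were tested and 4 fell, with sums of 6246 and 5885 on the liposome arrays, against 12561 and 11504 on the saline arrays, and Zbtb46, Xcr1 and Cd209a did not pass the filter. Of 19 macrophage markers 16 were tested, 1 rose and 7 fell, with a median log2 fold change of -0.42 and sums of 122836 and 112761 on the liposome arrays, against 155278 and 144465 on the saline arrays, and Marco and Vsig4 did not pass the filter. The 7 that fell were Cd5l, C1qc, Itgad, C1qa, C1qb, Vcam1 and Cd163, at log2 fold changes of -2.13 for Cd5l to -0.96 for Cd163. The one that rose was Mertk, a receptor for the uptake of dying cells (limma adjusted p = 0.0161). Mertk lay at least 6.38-fold higher by the same bound as Kcnh1, which holds for the processed signal only. Its fitted log2 fold change of 2.73 was 1.47 with normexp. These genes were named after their values were seen. Of 12 T cell markers 12 and of 12 natural killer cell markers 10 were tested, and 0 passed limma's threshold in either list, with medians of -0.09 and -1.30. All 10 natural killer markers were lower on the liposome arrays by group mean. Their sum was lower on the liposome array within both title numbers, at 17487 against 40365 for number 1 and 52080 against 127413 for number 2. The T cell sums overlapped, at 27778 and 50688 on the liposome arrays, against 26746 and 64439 on the saline arrays. Of 10 platelet markers 5 were tested, with higher sums on the liposome arrays, 1712 and 1607, against 939 and 938 on the saline arrays. The higher sums came from Pf4 alone, the brightest of the 5 on every array. By group mean 2 of the 5 were higher on the liposome arrays and 3 lower. Pf4 rose 4.30-fold and Gp9 fell at a log2 fold change of -0.99 (limma adjusted p = 0.00957 and 0.0198). The part of these shifts in the values of the cathepsin genes was not tested.

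The promoters of the 2 genes with the largest rises are shown because those genes moved together. They are RefSeq sequences of the assembly GRCr8, from 250 bases before to 50 after the start of the gene. Of the 10 genes 9 had one in the table used, all but Ctsb. On either strand CACGTG, the core of the site bound by TFEB and its relatives, was found in 1 of these 9 promoters, that of Ctsd, and in 6.42% of the 33469 promoters of the table. Ctsd held it at 2 places, starting at -157 and -10 from the start site, marked in capitals. The Ctsd promoter is chr1:206968772-206969071 and that of Lgmn chr6:127347279-127347578, both on the minus strand. The letters GGGCGG, a GC box, were found in 7 of the 9 promoters and in 33.1% of all. G and C made up 58.0% to 66.7% of the promoters of Ctsd, Ctsl, Ctsz, Ctsc, Lgmn and Cst3. They made up 45.3% to 51.3% of those of Ctss, Ctsk and Ctsh, against a median of 51.7% over all promoters. The part of this in the GGGCGG count was not tested. TCATGTG was found in 2 of 9 and 3.56%, GAGGAA in 5 of 9 and 27.6%, and TGANTCA, an AP-1 site, in 0 of 9 and 7.33%. In Ctsd no other match overlapped the CACGTG letters. A match describes letters and not binding.
Ctsd promoter: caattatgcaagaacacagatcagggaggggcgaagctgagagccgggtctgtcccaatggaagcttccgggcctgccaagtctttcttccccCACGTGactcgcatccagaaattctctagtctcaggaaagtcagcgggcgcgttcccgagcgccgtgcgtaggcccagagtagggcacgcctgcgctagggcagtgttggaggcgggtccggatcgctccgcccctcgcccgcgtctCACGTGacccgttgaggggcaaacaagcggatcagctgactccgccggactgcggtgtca
Lgmn promoter: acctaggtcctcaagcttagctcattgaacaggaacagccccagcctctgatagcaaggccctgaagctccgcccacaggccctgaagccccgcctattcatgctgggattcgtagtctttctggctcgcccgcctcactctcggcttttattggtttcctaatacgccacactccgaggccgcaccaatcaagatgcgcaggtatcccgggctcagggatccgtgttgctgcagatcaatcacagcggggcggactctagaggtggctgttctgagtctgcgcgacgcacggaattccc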

How the data were processed

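The deposited intensity values are spot signals on a linear scale, 1 Cy3 array per sample. The software named in the submitters' processing notes is Agilent Feature Extraction 10.7.3.1. Spatial and multiplicative detrending within an array were switched on, per the file headers, and all 4 arrays lay on 1 slide read in 1 scan. No spot was saturated, and 61.3% to 66.3% were well above background.

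Outlier-marked and control spots were dropped, and each array's 75th percentile was subtracted from the log2 intensity. A probe was kept if both arrays of either group had it well above background and every array gave a value (16855 of 30367 probes), and the brightest probe of a gene was used. RefSeq symbols were matched by accession for 18006 probes. The fit used lmFit and eBayes of limma 3.58.1 (R 4.3.3), with Benjamini-Hochberg adjustment over all 12861 genes. It was tried on simulated data with independent noise between arrays, which does not give the error rate for these 4 arrays. An exact permutation test of 2 against 2 cannot go below 0.333 and was not used.

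The members and lists were chosen with earlier results of these data known. Named genes are the 10 members, up to 4 passing genes per pathway list by size of change, and the 5 genes nearest the member with the largest change. Other genes named from the lists were chosen after their values were seen. Alternatives were other scalings, normexp, filters, probe rules, a replicate block and leaving out each array.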

Additional observations from a re-analysis of the deposited data

How the results depend on the processing

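The count of all genes past limma's threshold, 1143, was 1720 with normexp, 1817 with the title number as a replicate block, 0 of 21971 without the filter on dim probes (3005 at unadjusted p under 0.05) and 0 to 202 with 1 array left out. There the lone array of a group is assumed to vary as the other group does. Of the 10 genes 4 passed; 0 did without the filter (6 at unadjusted p under 0.05), and 0 to 1 with 1 array left out (4 to 9 at unadjusted p under 0.05). Without the filter the log2 fold changes of Lgmn, Ctsd, Ctsl and Ctsb were still 2.24, 2.04, 1.26 and 1.04. The standard error of Lgmn was then 0.168, against 0.137. Left-out arrays gave 2.09 to 2.39 for Lgmn, 1.97 to 2.10 for Ctsd, 1.22 to 1.30 for Ctsl, 0.89 to 1.19 for Ctsb and -0.0075 to 0.46 for Ctss, the only one of the 10 genes to change sign under any setting run. Ctsb lost its call with quantile normalization at 1.09. With normexp Ctsz (0.67) and Cst3 (-0.63) gained one; the causes were not tested. With the replicate block Cst3 gained a call too (-0.64, adjusted p = 0.0482), and the block ended no call among the 10 genes. The deviations of same-numbered arrays correlated at 0.355 over genes, and the titles give "exp" and the number without saying what arrays of a number share. Ctsw ran between -0.24 (without liposome 2) and 1.01 (without liposome 1), and was -0.19 without saline 1, on either side of 0. Without the filter 0 genes passed in each pathway list, and with 1 array left out 0 did, or 0 to 1 for other peptidases. Under other settings sorting genes past the threshold were 9 with median scaling and with normexp against 4, other peptidases 2 with quantile normalization against 4, membrane proteins 8 with the block against 5, other cathepsins 0 to 3 against 1, and MHC class II genes 1 with quantile normalization and 4 with normexp against 2. With 2 arrays a group, their number limits the precision.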
